A study of Mus musculus with 31 samples.

Results

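The mitochondrial genome of the mouse is a small circle of DNA that encodes 13 proteins of the respiratory chain, 2 ribosomal RNAs (rRNAs) and 22 transfer RNAs (tRNAs), and all 37 of these genes are described here in liver lacking Myc, Mlx or both. They were chosen by position, as every row of the 5-month expression table placed on chromosome MT, 37 of 41549 rows. Poly(A) RNA was sequenced from livers of mice aged 5 months that had been fasted for 14 h, in 21 libraries: 5 from DKO livers (5 males), 4 from MlxKO livers (4 males), 6 from MycKO livers (4 males and 2 females) and 6 from WT livers (4 males and 2 females). DKO mice carried loxP-flanked alleles of both Mlx and Myc, MlxKO mice those of Mlx and MycKO mice those of Myc, each with a tamoxifen-activated Cre recombinase (Cre-ERT2) at the Rosa26 locus, which is active in many cell types and not in hepatocytes alone. WT mice are labelled C57/B6 and no Cre or floxed allele is given for them, so the Cre line and the deleted genes cannot be told apart. All groups, WT included, were injected with tamoxifen (75 mg/kg, once a day on 5 days) at an age of 28 days. The labels do not tie the libraries to separate animals. The spread that the p-values rest on is that between these libraries, and may be partly technical.

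Myc drives the transcription of genes of growth. The glucose-responsive factors MondoA and ChREBP bind DNA as dimers with Mlx. Both strands of mitochondrial DNA are transcribed inside the organelle, by the polymerase Polrmt with the factor Tfam, into long precursors that span many genes. Most mRNAs and both rRNAs are flanked by tRNAs, and excision of the tRNAs releases the RNAs between them. The mature mRNAs then receive short poly(A) tails, except mt-Nd6, for which no tail has been found in human cells, while the rRNAs end in a few added adenosines at most. Liver libraries made with oligo(dT) beads, as these were per the labels' protocols, therefore capture the mitochondrial mRNAs well and the rRNAs and tRNAs poorly, and their levels here reflect capture as well as abundance.

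The sequences show why tails matter for these RNAs and where neighbouring genes share bases. All sequences are from GENCODE M21 (GRCm38), which held a transcript of equal length for 37 of the 37 genes, and they are given 5′ to 3′ on the strand of the gene. Of the 13 protein-coding genes 10 end in a whole stop codon, and 3 end in a single T after their last whole codon, printed in capitals in the last 30 bases. In such mRNAs the adenosines of the tail complete the stop codon.
mt-Co3, MT:9361-9390, plus strand: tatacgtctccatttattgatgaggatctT
mt-Nd4, MT:11515-11544, plus strand: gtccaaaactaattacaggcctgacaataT
mt-Cytb, MT:15259-15288, plus strand: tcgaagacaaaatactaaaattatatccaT

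2 pairs of mRNAs are made as single molecules with overlapping reading frames. mt-Atp8 and mt-Atp6 share 43 bases, shown with the first codon of mt-Atp6 in capitals. mt-Nd4l and mt-Nd4 share 7 bases, the capitals at the end of mt-Nd4l.
mt-Atp8 and mt-Atp6, MT:7927-7969, plus strand: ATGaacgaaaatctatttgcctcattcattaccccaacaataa
mt-Nd4l, MT:10144-10173, plus strand: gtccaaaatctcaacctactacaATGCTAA

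Reads within such shared bases, and reads from 1 molecule that holds 2 genes, can be counted for either gene or for neither, by a counting rule that the labels do not state. Strand was not stated either. mt-Nd5 and mt-Nd6 lie on opposite strands and share 14 bases (MT:13552-13565), and mt-Nd6 is the only protein-coding gene on the minus strand. Counts of mt-Nd6 therefore cannot be told apart from reads of the opposite strand.

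The rRNA ends and their longest runs of A are shown because capture on oligo(dT) needs adenosines. The longest run, in capitals, was 7 bases in mt-Rnr2 and 5 bases in mt-Rnr1. Among the mRNAs it ran from 3 bases in mt-Nd6 to 8 bases in mt-Nd2.
mt-Rnr1 longest run, MT:692-721, plus strand: ttcagcaaaccctAAAAAggtattaaagta
mt-Rnr1 3′ end, MT:995-1024, plus strand: aagcatactggaaagtgtgcttggaataat
mt-Rnr2 longest run, MT:1476-1505, plus strand: tttaaacttgctAAAAAAAcaacaaaatca
mt-Rnr2 3′ end, MT:2646-2675, plus strand: atacgtacaccctctaacctagagaaggtt

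Total counts per library ran from 18226467 to 28476797, and limits from counts cover counting error only, since reads carried no molecular identifiers. Levels throughout are counts scaled to the library size with TMM factors (CPM). Myc was at 0.492 to 2.40 in DKO and 0.720 to 2.61 in MycKO, against 3.61 to 22.1 in WT. Mlx was at 14.7 to 18.6 in DKO and 15.7 to 20.8 in MlxKO, against 24.5 to 29 in WT, so its RNA was lowered but still present in the knockouts. The 10 hepatocyte markers, led by Alb, summed to 76163 CPM or more in every library. The 5 striated muscle markers were at or near 0, at most 5.36 CPM in 1 WT library. Of the libraries, WT 2, WT 5 and MycKO 5, and likewise WT 1, MycKO 1 and MycKO 2, stood apart on principal components in an earlier analysis of these data, and results are given without them where that matters.

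All 13 mRNAs and both rRNAs passed the filter on low counts and were tested, while none of the 22 tRNAs did. The mRNAs held nearly all mitochondrial counts, 25757256 over the 21 libraries, against 154964 for the rRNAs and 59 for the tRNAs. Among the tRNAs only mt-Ts1, mt-Te and mt-Tl1 had any count. The other 19 tRNAs had 0 counts in every library, which allows at most 0.105 CPM in the deepest library and 0.165 CPM in the shallowest.

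mt-Ts1, a serine tRNA on the minus strand, held 53 of the 59 tRNA counts. Its capitals mark the 3 bases that pair with the 3′ end of mt-Co1, whose mRNA is known in human cells to run on through the strand opposite this tRNA.
mt-Ts1, MT:6870-6938, minus strand: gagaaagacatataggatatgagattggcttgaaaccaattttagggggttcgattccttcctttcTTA

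mt-Ts1 had 0, 1, 1, 0 and 2 counts in the DKO libraries and 0 in each of the 4 MlxKO libraries. In the MycKO libraries it had 7, 10, 5, 1, 0 and 0 counts, and in the WT libraries 0, 3, 16, 7, 0 and 0. Counts were found in 3 of 5 DKO, 4 of 6 MycKO and 3 of 6 WT libraries and were not tested. Without strand they cannot be told apart from reads of an extended mt-Co1 mRNA.

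**Figure D1:**
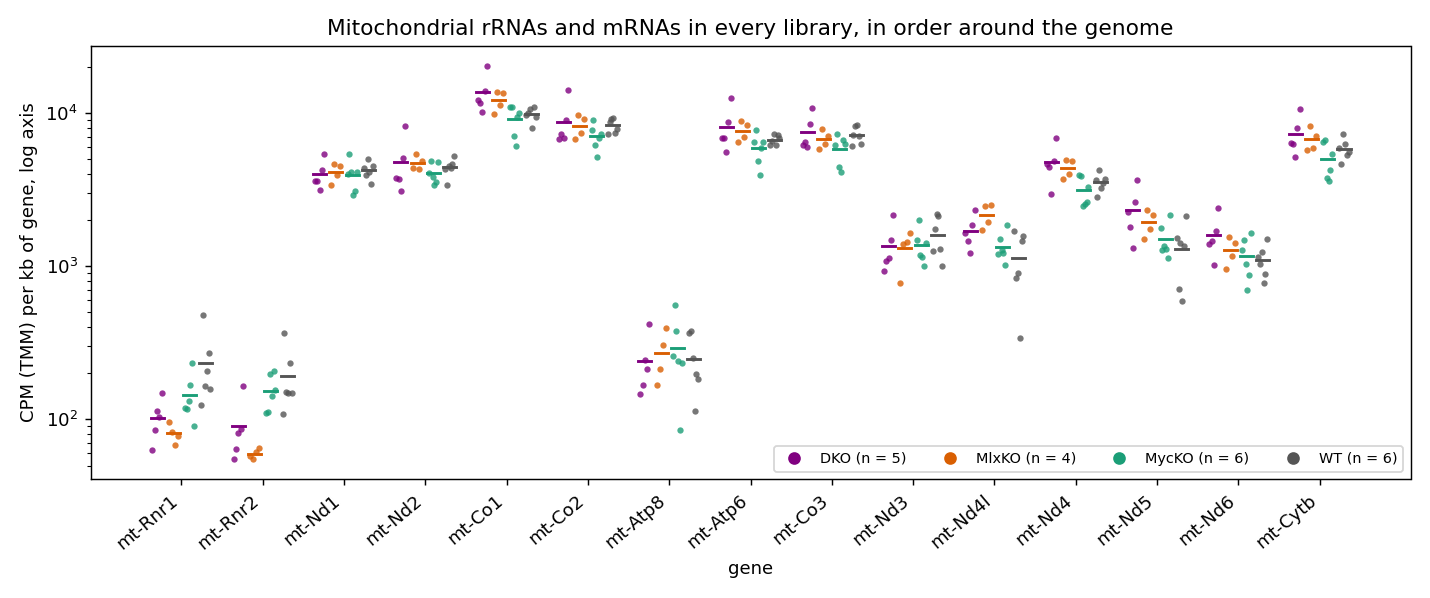
Level of each tested mitochondrial gene in CPM (TMM) per kb of gene, on a log axis, with genes in order around the genome. Each point is 1 library, and each bar is the group mean. mt-Co1 was highest per length in every group, and both rRNAs and mt-Atp8 had the lowest group means, with some overlap with mt-Nd4l in WT.

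The ratio of the highest to the lowest gene mean per kb was 151 in DKO, 204 in MlxKO, 63.5 in MycKO and 50.6 in WT, wider than any difference of a gene between groups. Per kb of gene length, mt-Co1, the catalytic core of cytochrome c oxidase, averaged 13680 CPM in DKO, 12129 in MlxKO, 9144 in MycKO and 9818 in WT. The WT order ran on through mt-Co2 (8315 CPM per kb), mt-Co3 (7233), mt-Atp6 (6725), mt-Cytb (5858), mt-Nd2 (4429), mt-Nd1 (4255) and mt-Nd4 (3540.5). Each gene in this run overlapped the next in its range over the 6 WT libraries. A gap followed: mt-Nd4 was at 2840.4 CPM per kb or more, and mt-Nd3 at 2202 or less. mt-Nd3, mt-Nd5, mt-Nd4l and mt-Nd6 averaged 1605, 1293, 1137 and 1099 CPM per kb and overlapped in turn. Next in order, mt-Nd6 was at 779 CPM per kb or more and mt-Atp8 at 379 or less, but mt-Nd4l, ranked above mt-Nd6, ran down to 339.5 and so overlapped mt-Atp8. mt-Atp8 (249), mt-Rnr1 (234) and mt-Rnr2 (194) stood lowest, and their ranges overlapped.

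The members of the 2 shared molecules were counted at very different levels per length. In WT, mt-Atp8 had 249 ± 106 CPM per kb, against 6725 ± 490.5 for mt-Atp6 on the same molecule (SD, n = 6). mt-Nd4l had 1137 ± 528 CPM per kb, against 3540.5 ± 484 for mt-Nd4. How reads on the shared bases were counted is not known, so the level of the shorter partner in each pair is uncertain.

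Both rRNAs were lower in MlxKO and in DKO than in WT. mt-Rnr1 encodes the 12S rRNA of the small subunit of the mitochondrial ribosome and lies at MT:70-1024. mt-Rnr2 encodes the 16S rRNA of the large subunit and lies at MT:1094-2675. mt-Rnr1 was at 60.6, 81.7, 108, 98.2 and 141 CPM in the DKO libraries and at 91.3, 79.5, 65 and 74.6 CPM in the MlxKO libraries. In MycKO it ran from 86.9 CPM through a median of 119.6 to 223 CPM, and in WT from 118 CPM through a median of 178 to 457 CPM. Every MlxKO library lay below every WT library, and DKO and WT overlapped, since DKO 5 at 141 CPM was above WT 1 at 118 CPM.

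mt-Rnr2 was at 87.3, 101, 129.6, 138 and 261 CPM in the DKO libraries and at 91.1, 87.1, 96.7 and 102 CPM in the MlxKO libraries. In MycKO it ran from 174 CPM through a median of 235 to 329 CPM, and in WT from 173 CPM through a median of 237 to 585 CPM. MlxKO and WT again did not overlap, and in DKO the library DKO 5 alone reached the WT range. WT 2 was the highest of the 21 libraries for both rRNAs.

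By edgeR's quasi-likelihood test with a term for sex, mt-Rnr1 fell by 1.57 ± 0.34 on the log2 scale in MlxKO (SE; adjusted p = 0.025) and mt-Rnr2 by 1.74 ± 0.34 (adjusted p = 0.014). In DKO against WT mt-Rnr1 fell by 1.24 ± 0.32 (edgeR adjusted p = 0.012) and mt-Rnr2 by 1.13 ± 0.31 (edgeR adjusted p = 0.017). Of all 13397 genes tested, 1.06% were called lower in MlxKO and 10.9% in DKO. Groups that did not overlap, with MlxKO lower, were found for 2.94% of all genes. In bulk tissue, fewer cells of a type and less RNA per cell cannot be told apart.

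The calls were not kept in every alternative. Without WT 2 alone, mt-Rnr1 in MlxKO and both rRNAs in DKO no longer passed (log2 −1.16, edgeR adjusted p = 0.069, and in DKO −0.83, adjusted p = 0.060, and −0.79, adjusted p = 0.079). Without WT 2, WT 5 and MycKO 5 none of the 4 passed: the log2 values were −0.76 (edgeR adjusted p = 0.13) and −1.05 (adjusted p = 0.099) in MlxKO and −0.43 (adjusted p = 0.18) and −0.45 (adjusted p = 0.27) in DKO. For mt-Rnr1 in MlxKO the call was also lost without MlxKO 2 (−1.58, edgeR adjusted p = 0.075), MlxKO 3 (−1.50, adjusted p = 0.086) or MlxKO 4 (−1.55, adjusted p = 0.083), with log2 values close to that of all libraries. The same held for mt-Rnr2 without MlxKO 2 (−1.70, edgeR adjusted p = 0.052) or MlxKO 4 (−1.78, adjusted p = 0.054). With the MlxKO and WT libraries fitted alone, mt-Rnr1 was at −1.66 (edgeR adjusted p = 0.097). Over all alternatives the adjusted p ran from 0.00037 to 0.13 and 3.3e-05 to 0.099 for mt-Rnr1 and mt-Rnr2 in MlxKO, and from 0.0015 to 0.18 and 0.0031 to 0.27 in DKO. All 4 stayed below 0 in every alternative, and all 4 were called with DESeq2, with limma-voom and among males only. Among males only, mt-Rnr1 in MlxKO passed narrowly (−1.66, edgeR adjusted p = 0.05 when rounded).

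RNAs of the nucleus and cytoplasm that are made without a poly(A) tail were looked at after these values had been seen. Rn7s1 and Rn7s2, near-identical copies of the RNA of the signal recognition particle, were summed. They were at 6.12, 3.33, 5.64, 1.91 and 1.53 CPM in DKO and at 5.42, 1.12, 5.04 and 4.59 CPM in MlxKO. In MycKO they ran from 6.52 CPM through a median of 10.9 to 23.0 CPM, and in WT from 3.56 CPM through a median of 7.53 to 39.3 CPM, again with WT 2 highest. Rn7sk, an RNA that holds back transcription elongation, averaged 0.954 ± 0.455 CPM in DKO (SD, n = 5) and 2.70 ± 1.73 CPM in WT (n = 6). It ran from 0.686 to 1.76 CPM in DKO and from 0.476 to 4.83 CPM in WT, and the groups overlapped. It fell by 1.64 ± 0.42 on the log2 scale in DKO (edgeR adjusted p = 0.012). Rpph1, the RNA of nuclear RNase P, fell by 2.34 ± 0.63 (edgeR adjusted p = 0.016). It had few counts, 0 to 6 in each DKO library and 8 to 23 in each WT library. Rn7s2 fell by 2.08 ± 0.59 in DKO (edgeR adjusted p = 0.021), while Rn7s1 at −2.09 ± 0.76 missed the threshold (adjusted p = 0.059). In MlxKO against WT the log2 values of Rn7s1, Rn7s2, Rn7sk and Rpph1 were −2.05, −1.92, −0.90 and −1.79, and none passed (edgeR adjusted p = 0.16, 0.10, 0.22 and 0.12). How much carry-over of RNA without tails contributed to the rRNA levels was not tested.

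**Figure D2:**
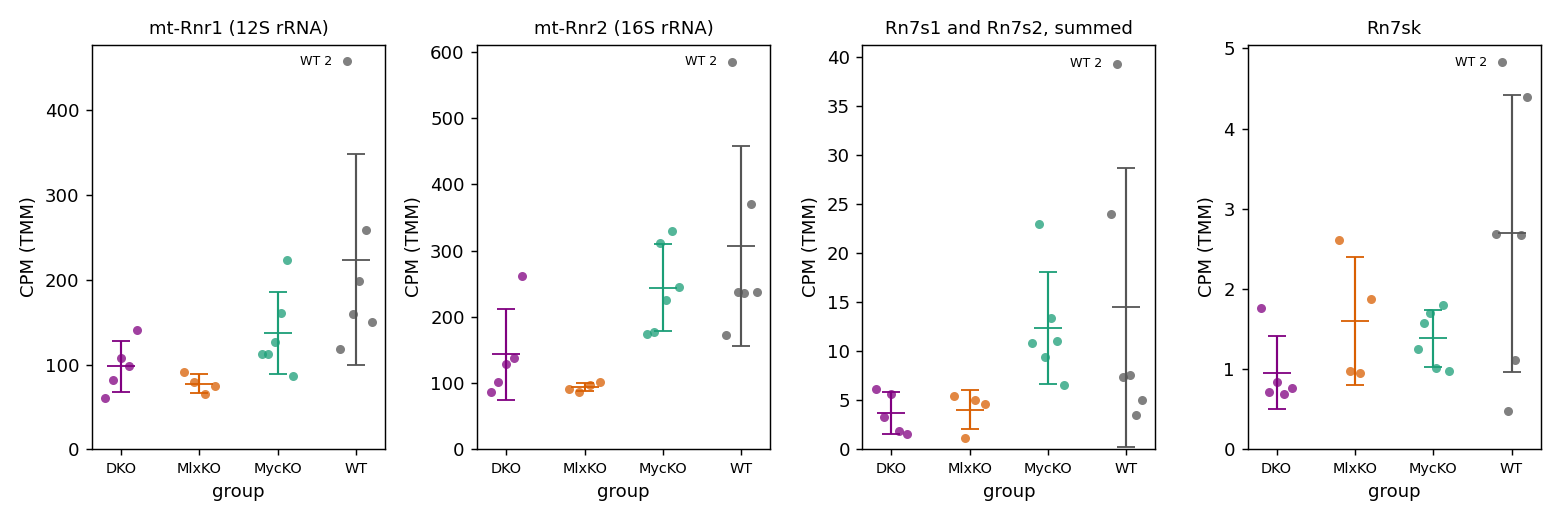
Levels in CPM (TMM) of mt-Rnr1, mt-Rnr2, Rn7s1 with Rn7s2, and Rn7sk. Each point is 1 library, and bars give the group mean ± SD. WT 2 is highest in all 4 panels, and the 4 MlxKO libraries lie below all WT libraries for both rRNAs.

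Levels of markers of other cell types are given beside these results. The 8 Kupffer cell markers, liver macrophage genes, summed to 106 to 202 CPM in DKO, 148 to 232 in MlxKO, 274 to 483 in MycKO and 146 to 398 in WT. The 6 red cell markers summed to 181 to 544 CPM in DKO, 423 to 551 in MlxKO, 302 to 786 in MycKO and 255 to 2083 in WT, with WT 2 highest. All 8 Kupffer cell markers and all 6 red cell markers had counts. Medians of further marker sums follow in the order DKO, MlxKO, MycKO and WT. Sinusoidal endothelial cell markers were at 230.5, 222, 215 and 206 CPM, and cholangiocyte markers at 57.4, 43.7, 37.5 and 36.3. Stellate cell markers were at 274, 197, 249.6 and 240.1 CPM. B cell markers were at 0.782, 1.61, 1.91 and 2.54 CPM. T and NK cell markers were at 1.26, 1.37, 3.67 and 1.75 CPM, and neutrophil markers at 3.66, 2.59, 6.86 and 3.85. Not every list was thus lower in DKO than in WT. The part of any cell type in the rRNA result was not tested.

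In MycKO against WT neither rRNA passed by edgeR, DESeq2 or limma-voom, and 1 (mt-Rnr1) had an unadjusted p under 0.05, as 7.67% of all genes did. mt-Rnr1 had a log2 value of −0.69 ± 0.29 (edgeR adjusted p = 0.56) and mt-Rnr2 of −0.31 ± 0.28 (adjusted p = 0.86). In DKO against MycKO the values were −0.55 ± 0.32 (edgeR adjusted p = 0.26) and −0.82 ± 0.32 (adjusted p = 0.092), and mt-Rnr2 passed without DKO 5 (−1.15, edgeR adjusted p = 0.027) and without WT 1, MycKO 1 and MycKO 2 (−1.19, adjusted p = 0.025). In DKO against MlxKO they were 0.34 ± 0.33 (edgeR adjusted p = 0.99) and 0.60 ± 0.33 (adjusted p = 0.90). The test of whether the Mlx effect differed with and without Myc gave 1.03 ± 0.44 and 0.92 ± 0.43, each with an edgeR adjusted p of 1.

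The rRNAs made up 0.351% ± 0.090 of the mitochondrial counts in DKO (SD, n = 5) and 0.278% ± 0.050 in MlxKO (n = 4). They made up 0.801% ± 0.315 in MycKO and 0.966% ± 0.545 in WT (n = 6 each). On this scale, which does not depend on the nuclear counts, every DKO library (0.246 to 0.485%) and every MlxKO library (0.228 to 0.346%) lay below every WT library (0.538 to 2.0%). The scale rests on mitochondrial mRNA, which averaged 6.82% of all counts in DKO and 6.5% in MlxKO, against 5.31% in WT. As a share of all counts, the rRNAs ran from 0.0157 to 0.0365% in DKO and from 0.0271 to 0.0959% in WT, and overlapped. MlxKO, at 0.0165 to 0.0199%, stayed below WT.

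The 2 rRNAs come from the same precursor, and the count ratio of mt-Rnr2 to mt-Rnr1 averaged 1.42 ± 0.259 in DKO, 1.24 ± 0.230 in MlxKO, 1.88 ± 0.605 in MycKO and 1.41 ± 0.144 in WT. MycKO 3 and MycKO 6, at 2.47 and 2.82, were above all other libraries. None of 5 comparisons of the log2 ratio passed by an exact two-sided permutation test without a sex term. The lowest p was 0.069, for MycKO against WT (adjusted p = 0.30 over the 5 comparisons), where the log2 ratio differed by 0.37.

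None of the 13 mRNAs was called in any comparison by edgeR. In DKO against WT, 10 of the 13 log2 values were above 0 and their median was 0.17, against a median of −0.02 over all 13397 genes. In MlxKO against WT 9 were above 0 (median 0.09, all genes −0.02). In MycKO against WT 4 were above 0 (median −0.13, all genes 0.00). At an unadjusted p under 0.05, 1 mRNA stood out in DKO against WT (mt-Nd5), 1 in MlxKO against WT (mt-Nd4l) and 0 in MycKO against WT. Over all genes 35% had such a p in DKO against WT, 22.1% in MlxKO against WT and 7.67% in MycKO against WT. DESeq2 and limma-voom called 0 mRNAs in these 3 comparisons. Over all genes 18.5% were called in DKO against WT, 1.69% in MlxKO against WT and 0.0896% in MycKO against WT. In DKO against MycKO 12 of the 13 log2 values were above 0 (median 0.34, all genes −0.02). There mt-Co1, mt-Nd4 and mt-Cytb had an unadjusted edgeR p under 0.05, as 29.3% of all genes did.

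**Figure D3:**
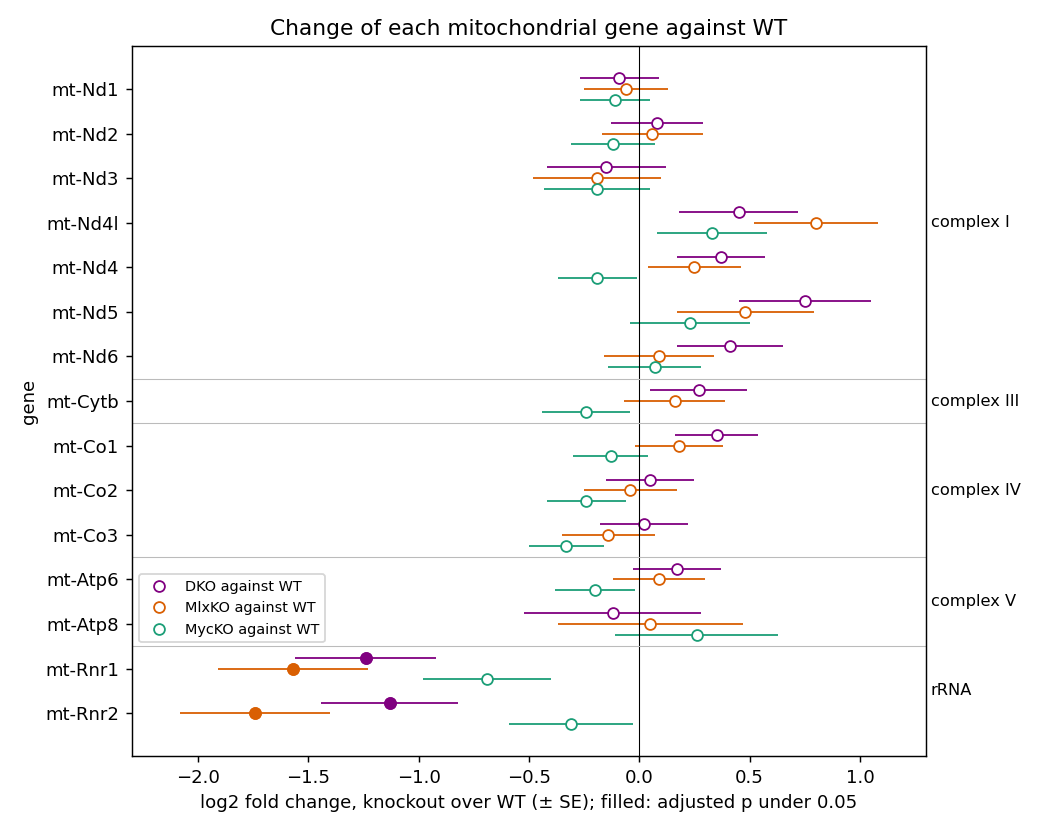
Log2 fold change of each mitochondrial gene in DKO, MlxKO and MycKO against WT, with bars of ± SE from the edgeR fit, grouped by respiratory complex. Filled points passed an adjusted p of 0.05: both rRNAs in DKO and MlxKO, and no mRNA.

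Complex I, which takes electrons from NADH, has 7 mitochondrially encoded subunits, all parts of its membrane arm. mt-Nd5, which forms the far end of the proton-pumping arm, was at 4135, 3294, 2404, 4823 and 6694 CPM in the DKO libraries and at 2750, 4287, 3176 and 3954 CPM in the MlxKO libraries. In MycKO it ran from 2072 CPM through a median of 2416 to 3975 CPM, and in WT from 1080.2 CPM through a median of 2544 to 3894 CPM. All 5 DKO libraries and all 4 MlxKO libraries were above the WT mean of 2358 CPM, and the groups overlapped. The log2 value was 0.75 ± 0.30 in DKO against WT (edgeR adjusted p = 0.083) and 0.48 ± 0.31 in MlxKO against WT (adjusted p = 0.38). It passed in DKO without WT 6 (0.96, edgeR adjusted p = 0.031) and without the sex term (0.86, adjusted p = 0.044).

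mt-Nd4l, a small subunit of the same arm, was at 489, 434, 366, 552 and 692 CPM in the DKO libraries and at 511, 739, 579 and 748 CPM in the MlxKO libraries. In MycKO it ran from 301 CPM through a median of 373 to 550.2 CPM, and in WT from 101 CPM through a median of 351 to 505 CPM. All MlxKO libraries lay just above all WT libraries, as was so for 2.81% of all genes. The log2 value was 0.80 ± 0.28 (edgeR adjusted p = 0.12), and it did not pass in any alternative tried.

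mt-Nd4, next to it on the same molecule, was at 6449.8, 6096, 4099, 6725 and 9471 CPM in the DKO libraries and at 5153, 6852, 5487 and 6709 CPM in the MlxKO libraries. The MycKO libraries ran from 3390.2 CPM through a median of 4078 to 5466 CPM, and the WT libraries from 3914 CPM through a median of 4922 to 5891 CPM. DKO overlapped each of the other groups, and 4 of the 5 DKO libraries were above every MycKO library. The log2 value was 0.37 ± 0.20 in DKO against WT (edgeR adjusted p = 0.19) and 0.25 ± 0.21 in MlxKO against WT (adjusted p = 0.49). In DKO against MycKO the difference of 0.56 ± 0.19 did not pass (edgeR adjusted p = 0.063), but DESeq2 called it (0.57, adjusted p = 0.027). It was also called without MycKO 1 (0.65, edgeR adjusted p = 0.049) and without DKO 3 (0.69, adjusted p = 0.027), without WT 1, MycKO 1 and MycKO 2 (0.79, adjusted p = 0.035), and with no sex term or no TMM scaling (0.60 each, adjusted p = 0.040 and 0.035). In this comparison, DKO against MycKO, 11.9% of all genes were called.

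None of the remaining complex I genes was called. mt-Nd1, which helps form the quinone-binding site, averaged 3847 ± 852 CPM in DKO, 3945 ± 546 in MlxKO, 3788 ± 857 in MycKO and 4072 ± 515 in WT. mt-Nd2 averaged 4989 ± 2150.1 CPM in DKO, 4929 ± 550.2 in MlxKO, 4256 ± 653 in MycKO and 4598 ± 622 in WT. mt-Nd3 averaged 472 ± 169.6 CPM in DKO, 459 ± 129.9 in MlxKO, 478 ± 123 in MycKO and 558 ± 174 in WT. For these 3 genes the log2 values against WT lay between −0.19 and 0.08 in the 3 knockout groups. mt-Nd6 averaged 829 ± 267 CPM in DKO, 665 ± 137 in MlxKO, 609 ± 189 in MycKO and 570.5 ± 136 in WT, with a log2 value of 0.41 ± 0.24 in DKO against WT (edgeR adjusted p = 0.22).

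Complex III passes electrons on to cytochrome c, and its 1 mitochondrially encoded subunit is the cytochrome b of mt-Cytb. It was at 7344, 7221, 5929, 9150 and 12099 CPM in the DKO libraries and at 6574, 9492, 6738 and 8082 CPM in the MlxKO libraries. MycKO libraries ran from 4099 CPM through a median of 5549 to 7694 CPM. WT libraries averaged 6701 ± 1044 CPM, with a median of 6588 and a highest value of 8374 CPM. The groups overlapped. The log2 value was 0.27 ± 0.22 in DKO against WT (edgeR adjusted p = 0.40) and 0.51 ± 0.21 in DKO against MycKO (adjusted p = 0.12), where it passed without WT 1, MycKO 1 and MycKO 2 (0.79, adjusted p = 0.040).

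Complex IV, cytochrome c oxidase, has its 3 core subunits encoded in the organelle. mt-Co1 was at 18839, 18089.6, 15688, 21450.3 and 31614 CPM in the DKO libraries and at 15327, 21149, 17469 and 21009 CPM in the MlxKO libraries. Its MycKO levels ran from 9506 CPM through a median of 15093 to 17075 CPM, and in WT from 12422 CPM through a median of 15249 to 17002 CPM. Of the 5 DKO libraries 4 were above every WT and every MycKO library, and DKO 5 was highest of all. The log2 value was 0.35 ± 0.19 in DKO against WT (edgeR adjusted p = 0.19) and 0.48 ± 0.18 in DKO against MycKO (adjusted p = 0.085), where DESeq2 called it (0.49, adjusted p = 0.036). Without TMM scaling it passed in both, at 0.46 against WT (edgeR adjusted p = 0.041) and 0.52 against MycKO (adjusted p = 0.037). mt-Co2, which takes the electrons from cytochrome c, averaged 6019 ± 2127 CPM in DKO, 5662 ± 951 in MlxKO, 4836 ± 914 in MycKO and 5687 ± 593 in WT. mt-Co3 averaged 5950.1 ± 1604 CPM in DKO, 5334 ± 719.6 in MlxKO, 4582 ± 1006 in MycKO and 5671 ± 734 in WT. Neither was called, and their lowest edgeR adjusted p in the 5 comparisons was 0.23, for mt-Co3 in DKO against MycKO.

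Complex V, the ATP synthase, has 2 mitochondrially encoded subunits, both in its membrane part. mt-Atp6, which forms the proton channel, averaged 5542 ± 1846 CPM in DKO, 5223 ± 781 in MlxKO, 4045 ± 923 in MycKO and 4579.7 ± 334 in WT. Its largest log2 value was 0.38 ± 0.19 in DKO against MycKO (edgeR adjusted p = 0.19). mt-Atp8, a small subunit beside it, averaged 48.8 ± 22.2 CPM in DKO, 55.1 ± 20.7 in MlxKO, 59.7 ± 32.6 in MycKO and 50.8 ± 21.6 in WT. Its log2 values carried the widest SE of the 15 genes, 0.40 in DKO against WT.

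In DKO against MlxKO none of the 15 tested genes was called by edgeR, DESeq2 or limma-voom, and 0 had an unadjusted p under 0.05. Over all genes 0.0373% were called and 6.02% had an unadjusted p under 0.05. The test of whether the Mlx effect depends on Myc called 0 of the 15, and 0% of all genes, by edgeR, and 0 of the 15 by DESeq2 and limma-voom. At an unadjusted p under 0.05 it had 2 of the 15, both rRNAs, and 469 of all 13397 genes.

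As a share of all counts in a library, mitochondrial genes made up 6.39, 5.88, 5.29, 7.28 and 9.40% in the DKO libraries and 5.74, 7.49, 5.89 and 6.93% in the MlxKO libraries. In MycKO the share ran from 4.47% through a median of 5.05 to 5.63%, and in WT from 4.80% through a median of 5.31 to 5.97%. On plain totals the DKO mean was 1.49 percentage points above the WT mean, and 0.852 points above it without DKO 5. The MlxKO mean was 1.15 points above WT on plain totals and 0.738 points on TMM-scaled library sizes. The difference on TMM-scaled sizes is not given here for DKO, so the groups can be compared on plain totals only. Every group overlapped WT, and the share was described without a test. By complex, the share of all counts averaged 2.14 ± 0.546% in DKO, against 1.68 ± 0.308% in WT, for complex I, and 3.30 ± 0.734%, against 2.55 ± 0.205%, for complex IV.

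Within the mitochondrial mRNA the split between complexes was alike in the group means. Single libraries varied more: within WT complex IV ran from 44.2 to 53.4% and complex I from 27.3 to 36.2%. Complex IV held 48.5 ± 1.65% in DKO, 47.2 ± 0.566% in MlxKO, 47.0 ± 2.84% in MycKO and 48.1 ± 3.22% in WT. Complex I held 31.2 ± 1.45% in DKO, 32.1 ± 0.164% in MlxKO, 33.4 ± 3.13% in MycKO and 31.4 ± 3.12% in WT. Complex III held between 11.4 and 12.2% in the group means, and complex V between 8.11 and 8.39%.

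For single genes within that total, none of 65 comparisons (13 genes in 5 comparisons) passed an exact two-sided permutation test after Benjamini-Hochberg adjustment over the 65. With 4 to 6 libraries a group the smallest p possible is between 0.0022 and 0.0079, so that a single gene could not pass this adjustment alone. These tests have no term for sex, and DKO and MlxKO are all males, while WT and MycKO each hold 2 females. mt-Nd1 held 5.72 ± 0.417% of mitochondrial mRNA in DKO, against 7.37 ± 0.689% in WT (exact p = 0.0065, adjusted p = 0.17) and 7.62 ± 1.2% in MycKO (exact p = 0.0065, adjusted p = 0.17). In DKO against MycKO the mt-Nd1 shares did not overlap. mt-Co1 held 31.0 ± 0.912% in DKO, against 27.5 ± 2.67% in WT (exact p = 0.024, adjusted p = 0.18). In WT its share was 26.4 and 23.8% in the 2 females and 25.9 to 30.6% in the 4 males. mt-Nd4l held 0.748 ± 0.052% in DKO, against 1.02 ± 0.0488% in MlxKO (exact p = 0.0079, adjusted p = 0.17), where the groups did not overlap and the p was the smallest these groups allow. In WT mt-Nd4l held 0.610 ± 0.284%. mt-Nd5 held 6.12 ± 0.825% in DKO, 5.59 ± 0.285% in MlxKO, 5.56 ± 1.27% in MycKO and 4.22 ± 1.76% in WT.

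**Figure D4:**
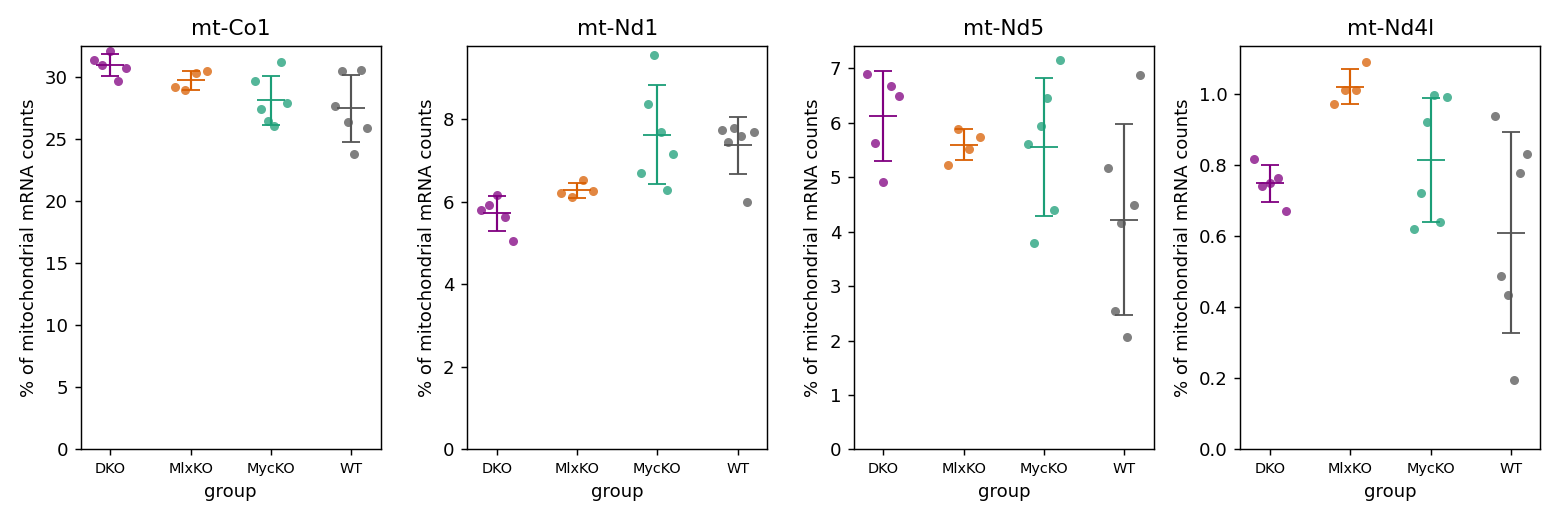
Share of mt-Co1, mt-Nd1, mt-Nd5 and mt-Nd4l in the counts of all 13 mitochondrial mRNAs, in percent, with axes that start at 0. Each point is 1 library, and bars give the group mean ± SD. The mt-Nd1 shares of DKO lie below those of MycKO, and the mt-Nd4l shares of MlxKO above those of DKO and WT.

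Each of these complexes also has subunits encoded in the nucleus, and the counts of the 2 genomes were set against each other. For complex IV, counts of the 3 mitochondrial genes over those of 11 nuclear genes came to 19.6, 17.7, 15.7, 28.6 and 37.7 in the DKO libraries and to 15.7, 25.2, 14.5 and 17.3 in the MlxKO libraries. In MycKO the ratio ran from 9.74 through a median of 11.1 to 14.0, and in WT from 9.11 through a median of 13.1 to 15.5. Every DKO library was above every WT library, and MlxKO overlapped WT. Both sides of the ratio differed in their means: nuclear subunits of complex IV summed to a mean of 1430.5 CPM in DKO, against 2171 in WT, and mitochondrial ones to 33105 CPM, against 26526. The nuclear sums ran from 1195 to 1598 CPM in DKO and from 1614 to 2990.3 CPM in WT, without overlap. The mitochondrial sums ran from 25065 to 49736 CPM in DKO and from 24792 to 29155 CPM in WT, and overlapped.

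For complex I the ratio averaged 10.5 ± 4.30 in DKO, 8.81 ± 2.28 in MlxKO, 5.96 ± 1.14 in MycKO and 6.15 ± 2.06 in WT. For complex III it averaged 6.61 ± 2.48 in DKO, 5.68 ± 1.62 in MlxKO, 3.64 ± 0.872 in MycKO and 4.07 ± 0.896 in WT. For complex V it averaged 1.52 ± 0.602 in DKO, 1.37 ± 0.279 in MlxKO, 0.967 ± 0.138 in MycKO and 1.05 ± 0.168 in WT. DKO and WT overlapped for these 3 complexes. In DKO against WT edgeR called lower 20 of 36 nuclear subunits of complex I, 5 of 9 of complex III, 8 of 11 of complex IV and 8 of 15 of complex V, and 0 higher. Over all genes 10.9% were called lower, and none of the mitochondrial subunits passed. Whether the difference between the 2 genomes exceeds chance was not tested.

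**Figure D5:**
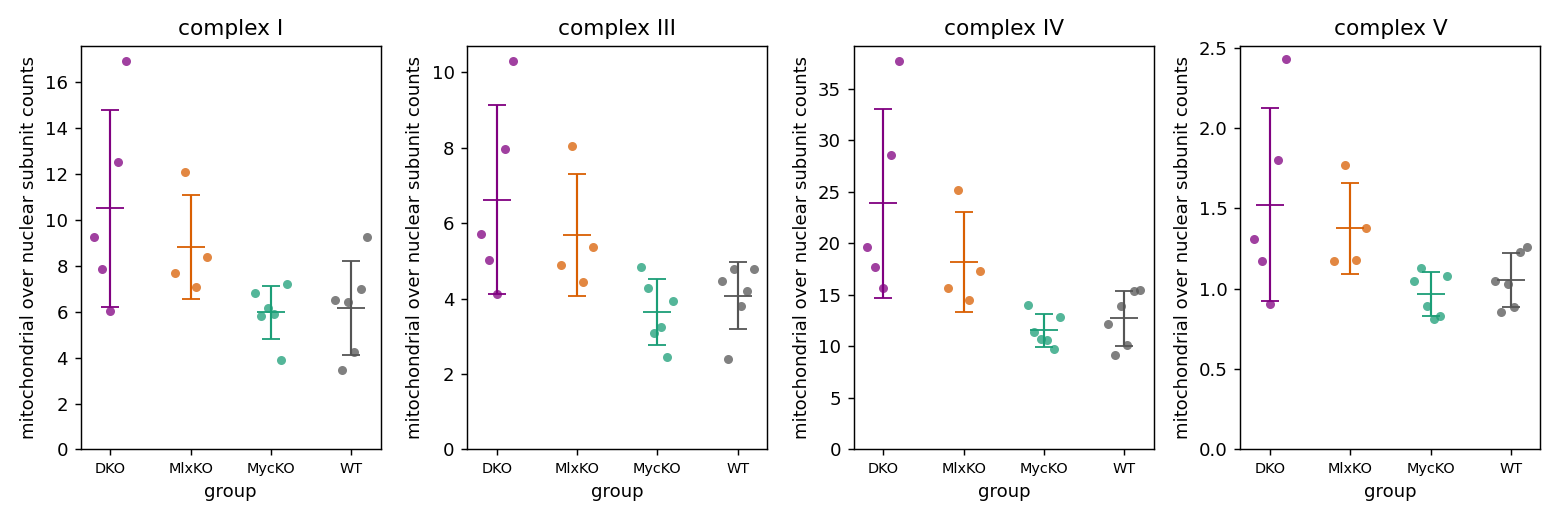
Ratio of summed counts of mitochondrially encoded subunits to summed counts of nuclear subunits for complexes I, III, IV and V. Each point is 1 library, and bars give the group mean ± SD. For complex IV every DKO library lies above every WT library.

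The nuclear genes that copy, transcribe, process and translate the mitochondrial genome were mostly not called. Of 59 such genes 58 were tested, and in DKO against WT 0 rose and 6 fell (median log2 −0.10), while 7.58% of all genes rose and 10.9% fell. The 9 tested genes of transcription had no call in any comparison by edgeR. Tfam, Polrmt, Lrpprc and Ppargc1a are given for their roles, and none of the 4 was called. Tfam, which packages the genome and starts transcription, averaged 43.9 ± 5.33 CPM in DKO, against 45.0 ± 4.37 in WT (log2 −0.02 ± 0.11, edgeR adjusted p = 0.94). Polrmt, the polymerase, averaged 27.1 ± 0.895 CPM in DKO, against 28.7 ± 5.48 in WT (log2 −0.04 ± 0.12, edgeR adjusted p = 0.85).

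Of 21 genes of RNA processing and stability 3 fell in DKO. Slirp, which binds Lrpprc and protects mitochondrial mRNAs, fell by 0.99 ± 0.23 on the log2 scale, to 8.34 ± 1.0 CPM, against 15.6 ± 5.46 in WT (edgeR adjusted p = 0.0081). Its partner Lrpprc averaged 109.9 ± 10.5 CPM in DKO and 108 ± 12.2 in WT (log2 0.10 ± 0.10, edgeR adjusted p = 0.50). Rexo2, an exonuclease that clears short RNAs, fell by 0.47 ± 0.16 (edgeR adjusted p = 0.042). Trnt1, which adds the CCA end to tRNAs, fell by 0.36 ± 0.12 (edgeR adjusted p = 0.044).

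Ssbp1, the single-strand binding protein of mitochondrial DNA replication, fell by 0.46 ± 0.12 in DKO (edgeR adjusted p = 0.017) and was the only one of 9 replication genes called. Tufm, the elongation factor of mitochondrial translation, fell by 0.55 ± 0.14, to 63.2 ± 5.53 CPM, against 97.2 ± 20.7 in WT (edgeR adjusted p = 0.012), the only one of 12 translation genes called. Esrra, a nuclear receptor that drives genes of respiration, fell by 0.70 ± 0.22 (edgeR adjusted p = 0.035), while its coactivator Ppargc1a had a log2 value of −0.34 ± 0.32 (adjusted p = 0.47). Among males only, 3 of the 58 genes were called in DKO against WT. The share of all genes called among males only is not given here, so this count cannot be set against it.

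In DKO against MycKO Slirp fell by 0.96 ± 0.23 (edgeR adjusted p = 0.012) and Ssbp1 by 0.38 ± 0.12 (adjusted p = 0.047), 2 of the 58 genes, while 7.52% of all genes fell. DESeq2 called 5. In MlxKO against WT edgeR called 0 of the 58 and DESeq2 1, and in MycKO against WT edgeR called 0 and DESeq2 2. In DKO against MlxKO both called 0. The share of all genes that DESeq2 called is not given here, so its counts cannot be set against it.

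A second table of the series held 5 adenomas labelled MlxKO, from mice with an albumin-driven Cre-ERT2 (age 14, 15 or 17 months), and 5 livers of WT mice at 17 months. None of these 10 mice was fasted. It has a row for each of the 37 genes, but the 13 protein-coding rows are listed at exactly 0 in all 10 libraries, so no mRNA level is given for it. Both rRNAs had counts. mt-Rnr1 ran from 305 to 649 CPM of the plain library total in the adenomas, against 250.4 to 1031 CPM in the old WT livers. mt-Rnr2 ran from 406 to 1006 CPM in the adenomas, against 212 to 1590.3 CPM in the old WT livers. The groups overlapped for both rRNAs, and no test was made. Among the old WT livers, mt-Rnr1 was at 250.4 and 331 CPM in females and at 482 to 1031 CPM in males. mt-Rnr2 was at 212 and 299.8 CPM in these females and at 442 to 1590.3 CPM in these males. Among the adenomas, mt-Rnr1 was at 369.8 to 649 CPM in females and at 305 CPM in the male. mt-Rnr2 was at 490.2 to 1006 CPM in the female adenomas and at 406 CPM in the male adenoma. For both rRNAs every female adenoma was thus above both female WT livers, and the male adenoma was below every male WT liver. The 2 tables were made separately, so their levels were not compared.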

How the data were processed

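Poly(A) RNA sequencing gave a deposited table of raw counts per gene, and the submitters' processing notes name GRCm38.p6 as the genome build the authors used. Aligner, counter and strand setting: not given in the sources used here. Of the columns with normalized values, 63 in the 5-month table and 30 in the older table were not used. Genes passing edgeR's filterByExpr (13397) were fitted in all 21 libraries with edgeR 4.0.16 in R 4.3.3 (TMM scaling, group and sex terms, quasi-likelihood F test, Benjamini-Hochberg adjustment over all genes, threshold 0.05). Fits were tested on simulated data. DESeq2 1.42.0 and limma 3.58.1 (voom) were alternatives, with others on filter, sex, library size and libraries left out. Shares and ratios were computed from counts in Python 3.11.15, and exact two-sided permutation tests were run for single genes without a sex term. The members and lists were chosen with earlier results of these data known. Genes named are all tested members and called genes of the expression list. RNAs without tails were chosen after values were seen.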

Additional observations from a re-analysis of the deposited data

Results flagged for a closer look

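DKO 5 stood apart from the other DKO libraries for mt-Rnr2, at 261 CPM, with the next highest DKO library at 138 CPM. Among 68 groups of libraries examined this was the only one with such a library. Chance gives such a library in about 1 of 20 groups, so 1 among 68 is no more than that rate gives. In the older table, mt-Ts1 had 57 counts summed over the 5 adenomas, with 2 to 19 in each, and 0 in each of the 5 old WT livers, a signal outside the comparisons of the report. The adenoma libraries were deeper, with totals of 34590164 to 37087490 counts, against 16036626 to 18690029 in the old WT livers. The difference was not tested.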

How the results depend on the processing

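The number of mitochondrial genes called was 2 in DKO against WT and 2 in MlxKO against WT. Without WT 2, WT 5 and MycKO 5 it was 0 in both, and with the MlxKO and WT libraries fitted alone it was 1. Leaving out 1 library at a time gave 0 to 3 in DKO against WT and 0 to 2 in MlxKO against WT. In DKO against MycKO, where 0 were called, DESeq2 called 2, a fit with no sex term 1, no TMM scaling 2, and the fit without WT 1, MycKO 1 and MycKO 2 called 3, while leaving out 1 library gave 0 to 1. The cause was not tested. The mean log2 ratio of mt-Rnr2 to mt-Rnr1 in DKO against WT was 0.01, but −0.03 in males only and −0.02 without WT 2, WT 5 and MycKO 5, and −0.09 to 0.07 when leaving out 1 library. Of the 58 genes of mitochondrial genome expression, 6 were called in DKO against WT but 3 in males only. DESeq2 called 1 in MlxKO against WT, 2 in MycKO against WT and 5 in DKO against MycKO. Shares of all genes called by DESeq2 or in males only are not given here for these counts. The mitochondrial share differed by 0.852 to 1.88 percentage points in DKO against WT and by −0.302 to 0.724 in DKO against MlxKO when leaving out 1 library. Without TMM scaling the median log2 value of all genes moved to 0.11 in DKO against WT and 0.14 in MlxKO against WT, where it was −0.02 in both with scaling. Calls then split into 1315 higher and 752 lower in DKO against WT, where TMM gave 1015 and 1460, and into 138 and 60 in MlxKO against WT, where TMM gave 85 and 142. Of 77 pairs of gene and comparison at an unadjusted p of 0.05 or more, 42 had another sign under some setting, none of them past the threshold. Adding nuclear copies of mitochondrial genes to the share was not run. No paired analysis was possible because the labels give no replicate numbers shared between groups.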
